A study of Drosophila melanogaster with 3 samples.

Results

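The regions described here were binding peaks of the protein crp at promoters that serve 1 gene and that carry the palindrome CAGCTG at the peak's summit, the base of highest signal. They were taken from the dm6 list of 5460 peaks that passed the authors' threshold on the irreproducible discovery rate (IDR), a measure of how well the order of peaks is repeated from one replicate to another. Of these peaks, 3975 had a summit at most 500 bp from a protein-coding start site. From them, 1485 peaks were set aside because start sites of genes on opposite strands both lay within 500 bp, and 529 because the nearest start was an internal one, more than 500 bp from the gene's most upstream start. Of the 1961 peaks that remained, 654 (33.4%, 95% Wilson interval 31.3 to 35.5) held CAGCTG whole within 50 bp of the summit. These 654 members belonged to 648 genes. The other 1307 peaks, at 1217 genes, lacked the site in that window and serve as the comparison.

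The 3 samples were biological replicates of 1 group, transgenic Drosophila melanogaster crp-GFP, a strain stably carrying crp with GFP fused to its C terminus. Whole embryos of both sexes, pooled and aged 0 to 24 h, were sonicated to fragments of 200 to 800 bp and precipitated with an antibody against GFP. Every embryo carried the tagged protein, so the data describe 1 condition, averaged over the stages and tissues of embryogenesis, and hold no untagged or mutant group. Each replicate has a relaxed list of 28713 to 30000 peaks, with a signal value on the scale of the authors' peak caller. The depth of the libraries is unknown, so relative signal below means a peak's signal in a replicate divided by the median of that replicate's 5460 strongest peaks.

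crp (cropped) encodes the fly member of the AP-4 family of basic helix-loop-helix leucine zipper proteins. Proteins of this class bind DNA as dimers, each subunit reading one side of a short palindrome called an E-box, and the family is known for the E-box with GC at its centre, CAGCTG. In Drosophila, crp is known for its part in the branching of terminal tracheal cells, the fine air tubes. A factor bound close to a start site lies where RNA polymerase II and the general transcription factors assemble.

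The sequences around the summits of the strongest members show the site with its neighbours and, in many, more than 1 copy. Each is read 5′ to 3′ on the strand of the gene from the RefSeq copy of the dm6 assembly, with every whole CAGCTG in capitals. A window reaches 50 bases to either side of the summit, and is shortened where it would run more than 30 bases into an annotated UTR. The first 8 are those with the highest mean signal among the members shown, CG9175 (chr2L:6098973-6099073, minus strand), mTTF (chr2L:14348764-14348864, minus), RabGGTb (chr2L:2879045-2879141, plus), CG11050 (chr2L:6610928-6611028, plus), jar (chr3R:24271309-24271409, minus), Rfx (chr3R:10378091-10378191, minus), Sap47 (chr3R:15935056-15935129, plus) and CG1354 (chrX:9778639-9778739, plus).
CG9175: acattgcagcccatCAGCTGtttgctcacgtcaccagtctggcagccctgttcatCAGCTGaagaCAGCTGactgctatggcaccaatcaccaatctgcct
mTTF: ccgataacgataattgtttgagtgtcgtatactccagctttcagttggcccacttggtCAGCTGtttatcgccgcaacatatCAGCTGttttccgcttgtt
RabGGTb: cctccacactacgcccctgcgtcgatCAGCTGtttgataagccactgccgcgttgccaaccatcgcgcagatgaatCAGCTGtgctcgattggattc
CG11050: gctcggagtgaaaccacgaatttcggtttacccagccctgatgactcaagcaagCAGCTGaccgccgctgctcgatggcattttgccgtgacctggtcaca
jar: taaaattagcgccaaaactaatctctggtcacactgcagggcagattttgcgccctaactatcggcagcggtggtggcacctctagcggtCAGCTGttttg
Rfx: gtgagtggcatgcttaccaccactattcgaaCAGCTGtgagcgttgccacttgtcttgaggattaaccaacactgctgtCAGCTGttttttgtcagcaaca
Sap47: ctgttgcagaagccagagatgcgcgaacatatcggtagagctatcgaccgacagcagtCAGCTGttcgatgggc
CG1354: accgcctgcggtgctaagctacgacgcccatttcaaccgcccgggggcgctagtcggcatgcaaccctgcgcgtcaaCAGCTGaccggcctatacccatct

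Members with several sites show how the copies were spaced. CG2841 (chrX:2366340-2366440, minus strand) was the member with 4 sites, and Aprt (chr3L:1884895-1884924, minus) held 2. For mIF2 (chr3R:28544788-28544864, minus), which also held 2, the printed stretch shows 1 of them.
CG2841: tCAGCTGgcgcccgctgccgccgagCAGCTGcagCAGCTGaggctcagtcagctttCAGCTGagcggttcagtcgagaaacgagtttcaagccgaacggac
Aprt: cgatatCAGCTGacttatCAGCTGttccgt
mIF2: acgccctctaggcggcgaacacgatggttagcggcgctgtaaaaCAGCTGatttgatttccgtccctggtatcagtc

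Members from named gene groups come next, E2f1 (chr3R:21660986-21661086, minus strand), Polr1B (chr2L:404029-404129, plus), mRpS9 (chr3R:7902638-7902734, minus), ClpX (chr3R:19903451-19903480, minus), l(2)k09022 (chr2L:6854043-6854143, plus) and ND-B17 (chr2L:15751049-15751148, minus), followed by members at the weak end of the list, Lim1 (chrX:8805686-8805715, minus) and CG7720 (chr3R:18795409-18795509, minus).
E2f1: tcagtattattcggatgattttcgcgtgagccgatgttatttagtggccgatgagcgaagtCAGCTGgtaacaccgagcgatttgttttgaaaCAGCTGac
Polr1B: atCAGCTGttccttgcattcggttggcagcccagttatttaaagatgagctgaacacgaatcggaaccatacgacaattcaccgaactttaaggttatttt
mRpS9: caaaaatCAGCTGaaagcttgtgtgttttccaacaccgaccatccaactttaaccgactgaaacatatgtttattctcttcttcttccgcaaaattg
ClpX: aagaacggcgaaCAGCTGagaccgataaca
l(2)k09022: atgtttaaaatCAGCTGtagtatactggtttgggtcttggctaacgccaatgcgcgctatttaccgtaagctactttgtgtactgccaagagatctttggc
ND-B17: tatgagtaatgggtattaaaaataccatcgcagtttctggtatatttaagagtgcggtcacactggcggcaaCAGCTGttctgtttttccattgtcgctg
Lim1: tttaccgttagtCAGCTGtttaccgttccg
CG7720: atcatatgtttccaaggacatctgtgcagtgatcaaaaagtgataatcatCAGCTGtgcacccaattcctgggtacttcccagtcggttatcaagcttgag

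In most of these windows, strong or weak, the hexamer was flanked by A or T, as in ATCAGCTGTT of mTTF and AACAGCTGAC of CG1354; the printed letters of weak Lim1 and CG7720 do not stand apart in this respect. The windows of jar and ND-B17 also hold GGTCACACT, the letters of the M1BP site, 1 copy each, and that of mTTF holds 3 copies of CGATA, the short site of the insulator protein BEAF-32. These matches are letters only, not sites shown to be bound.

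The bases beside CAGCTG separated bound from unbound promoter sites. All 5648 CAGCTG sites of the annotation whose centre met the same rule for promoters of 1 gene were sorted by whether they lay whole within 50 bp of an IDR summit. Of these sites, 717 (12.7%, 11.9 to 13.6) were under an IDR summit, 260 (4.60%) were under a summit of the relaxed pooled list only, and 4671 (82.7%) were under neither. The sites lay in 4360 genes, 647 of which (14.8%) had a bound one. Each site was put in 1 of 10 classes by the base before CAG on its 2 strands. Against all other classes and the background of 12.7%, 3 classes (30%) were bound more often and 5 (50%) less often by Fisher's exact test with Benjamini-Hochberg adjustment over the 10. The test treats sites as units, so each class is also given over the replicates' own strongest peaks.

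Adenine or thymine on both strands marked the classes bound more often. Sites reading ACAGCTGA, with adenine before CAG on one strand and thymine on the other, were bound in 286 of 741 cases (38.6%, 35.2 to 42.2; log2 odds ratio 2.71, adjusted exact p = 6.8e-86). The replicates gave 34.4%, 32.4% and 43.5% (36.8 ± 5.89, SD, n = 3). Adenine on both strands, ACAGCTGT, gave 115 of 337 (34.1%, adjusted exact p = 9.9e-26; replicates 32.7% ± 5.66). Thymine on both, TCAGCTGA, gave 64 of 276 (23.2%, adjusted exact p = 1.4e-06; replicates 20.3% ± 3.92). Each of these classes was above 12.7% in every replicate, though that share belongs to the IDR list and not to the replicates' own lists.

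Guanine and cytosine marked the classes bound less often. GCAGCTGC was the lowest, with 5 of 617 sites bound (0.810%, 0.347 to 1.88; log2 odds ratio −4.20, adjusted exact p = 1.8e-30; replicates 1.57% ± 0.655). CCAGCTGC followed with 28 of 913 (3.07%, adjusted exact p = 4.9e-27, replicates 2.41% ± 0.897). Next were CCAGCTGG with 5.06% (replicates 4.96% ± 0.455), ACAGCTGC with 6.38% (6.66% ± 1.91) and GCAGCTGA with 6.47% (6.38% ± 2.28). In the shorter lists without replicates 1, 2 and 3, CCAGCTGC gave 1.53%, 1.86% and 0.986%. All other classes gave 11.6%, 12.7% and 11.2% there. Without replicate 3, GCAGCTGA gave 3.64%, against 10.5% in all other classes. ACAGCTGG (10.9%, adjusted exact p = 0.253, replicates 11.4% ± 3.09) and CCAGCTGA (10.5%, adjusted exact p = 0.113, replicates 10.5% ± 1.62) did not pass. The number called stayed between 8 and 9 of 10 under every alternative run, including sites within 100 bp of a start only.

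**Figure D1:**
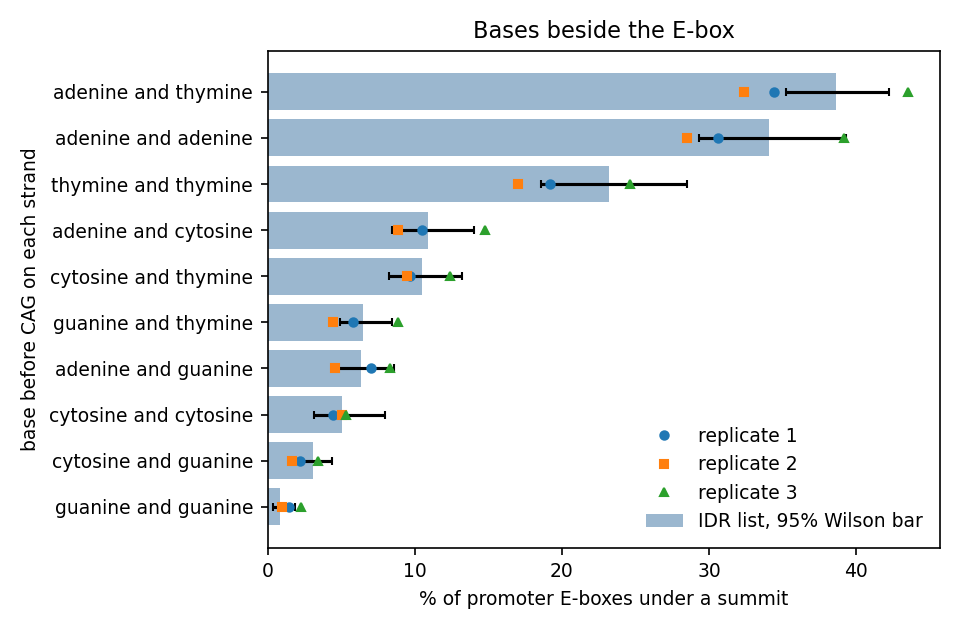
Share of promoter E-boxes under a summit (x axis, %), by the base before CAG on each strand (y axis). Bars are the IDR list with 95% Wilson intervals and points are the 3 replicates; the classes with adenine or thymine on both strands reach 23.2% to 38.6%, and guanine on both reaches 0.810%.

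The base one step further out also differed, described here without a test. Read on each strand, the 5 letters AACAG preceded bound sites in 36.8% of 1182 cases and ATCAG in 33.4% of 907, while TTCAG did so in 4.13% of 751 and GGCAG in 1.54% of 712. Adenine was therefore frequent and thymine rare at the outer place: adenine stood there in 60.2% of bound strands against 29.9% of unbound ones, and thymine in 7.88% against 28% of unbound ones. The 10 letters AACAGCTGAT were bound at 127 of 189 promoter sites (67.2%), AACAGCTGAC at 59.5% of 84, AACAGCTGTT at 53.6% of 112 and ATCAGCTGAT at 48.7% of 39. AACAGCTGAT was at the nearest site of 114 members (17.4%), the most frequent such sequence, followed by AACAGCTGTT at 52.

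Among members with 1 site, adenine beside it went with a higher signal. The median relative signal of the 100 members with adenine before CAG on both strands was 3.94, 4.00 and 5.87 in replicates 1, 2 and 3, and that of the 319 with adenine on 1 strand was 4.19, 3.99 and 5.99. The 173 with adenine on neither strand had 1.99, 1.83 and 2.60. The last group was the lowest in every replicate, while the others were close to each other (4.60 ± 1.09 and 4.73 ± 1.10, against 2.14 ± 0.405, mean of replicate medians ± SD, n = 3). No test was run between these groups.

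The place of a site relative to the start also separated bound from unbound sites. Within 100 bp of a start, 528 of 1410 sites were bound (37.4%), against 189 of 4238 farther out (4.46%; log2 odds ratio 3.68, adjusted exact p = 9.3e-195). In the replicates the values were 33.5%, 32.6% and 41.5% near the start, against 4.15%, 2.88% and 6.18% farther out. In the shorter lists without replicates 1, 2 and 3 the shares near the start were 32.1%, 33% and 31%. Farther out they were 2.62%, 3.63% and 2.45%. Upstream of the start 443 of 2183 sites were bound (20.3%), against 269 of 3455 downstream (7.79%; log2 odds ratio 1.59, adjusted exact p = 9.3e-42). That order too was seen in each replicate, with 17.9%, 16.3% and 23.1% upstream, against 7.32%, 6.37% and 9.75% downstream. Among sites with adenine or thymine before CAG on both strands, the shares were 40.8% upstream and 27.1% downstream, a smaller log2 odds ratio of 0.89 (adjusted exact p = 1.2e-07). These are Fisher's exact tests over sites, two-sided and adjusted over both comparisons.

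The bound share had a sharp edge downstream. It was 31.3% from 100 to 51 bp upstream, 46.8% (42.3 to 51.3) in the last 50 bp before the start and 48.6% (43.9 to 53.3) from the start to 49 bp past it. From 50 to 99 bp downstream it was 3.35% (1.63 to 6.75), 7 of 209 sites. Upstream, the share fell off over a longer stretch, with 16.3% in the next 50 bp upstream and 4.38% at the far end of the 500 bp.

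Neighbouring bases and place combined. From 50 bp before to 49 bp after a start, sites with adenine or thymine on both strands were bound in 289 of 421 cases (68.6%, 64.1 to 72.9), those with it on 1 strand in 36.8% of 321 and those with it on neither in 21 of 156 (13.5%). Sites with AACAG on one strand and ATCAG on the other, the letters AACAGCTGAT, were bound in 83 of 98 cases there (84.7%, 76.3 to 90.5), with 81.6%, 75.5% and 92.9% in the replicates. From 50 to 99 bp past the start, sites with adenine or thymine on both strands were bound in 3 of 43 cases (6.98%). No test of the combination was run.

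**Figure D2:**
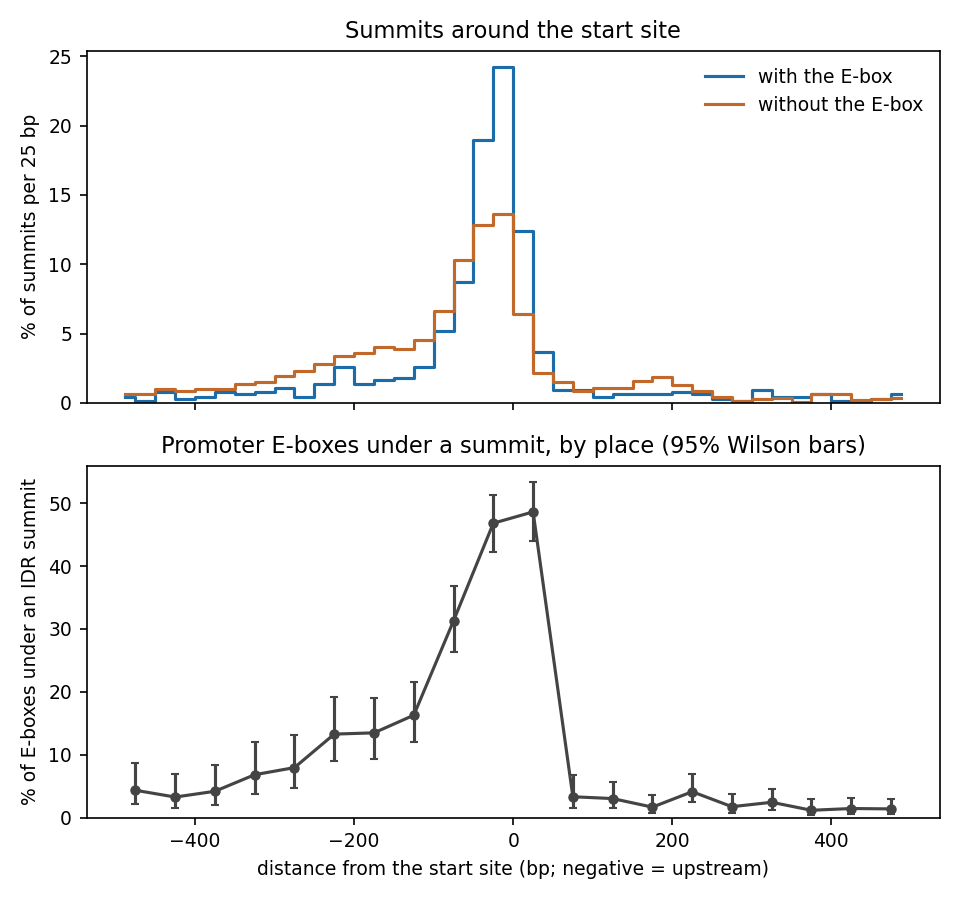
Top, share of summits (y axis, % per 25 bp) by distance from the start site (x axis, bp, negative upstream) for members and for peaks without the E-box; bottom, share of promoter E-boxes under an IDR summit per 50 bp with 95% Wilson intervals. Members cluster just upstream of the start, and the bound share drops from 48.6% to 3.35% between neighbouring 50-bp stretches past the start.

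Members had summits close to the start. The median position was 26 bp upstream in members and 53 bp upstream in the peaks without the site. In members, 387 summits (59.2%) lay within 50 bp of the start and 490 (74.9%) within 100 bp, against 35.1% and 54.3% of peaks without the site. The share lying upstream did not show a stable direction. It was 486 of 654 (74.3%) in members and 1017 of 1307 (77.8%) in peaks without the site (log2 odds ratio −0.28, adjusted exact p = 0.134), and the difference in the replicates was 4.76, −4.61 and 6.21 percentage points (2.12 ± 5.88, SD, n = 3). The difference passed the threshold within signal quintiles (log2 odds ratio −0.81, Mantel-Haenszel adjusted p = 1.3e-04) and turned round without replicate 2 (0.32, adjusted exact p = 0.0596).

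Within the 50 bp that the rule allows, the E-box lay more often on the downstream side of the summit. The rule keeps every member's nearest site inside that window, so the short distances are partly built in. The median distance from the summit to the centre of the nearest site was 17.5 bp, with that centre within 10 bp in 179 members and within 20 bp in 358 (54.7%). It lay downstream of the summit, in the direction of transcription, in 435 members (66.5%, 62.8 to 70.0). The share was 66.7% for genes on the plus strand and 66.4% for genes on the minus strand, so it followed the gene and not the chromosome's direction. The replicates' own members gave 62.1%, 67.6% and 60.2% (63.3 ± 3.84, SD, n = 3). By signal it was 71.5% in the strongest quintile of the IDR list and 52.5% in the weakest. Relative to the start, the median place of the nearest site was 14 bp upstream, with 191 sites in the last 50 bp before the start and 194 in the 50 bp from it. By annotation, 331 nearest sites (50.6%) were intergenic, 262 (40.1%) in a 5′ UTR, 46 (7.03%) in an intron, 9 in a coding exon and 6 in a 3′ UTR.

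The rule's limit of 50 bp fell where peaks with a site were still found. The 35 members whose nearest site ended 46 to 50 bp from the summit had a median IDR rank of 775, and the 31 peaks just outside, at 51 to 55 bp, had 2414. Of the 1307 peaks without the site, 165 (12.6%) held one within 100 bp.

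Most members held 1 site. There were 592 members with 1, 59 with 2, 2 with 3 and 1 with 4, so 62 (9.48%) held several. Among these, 66 adjacent pairs were spaced 7 to 84 bp apart, first base to first base, with a median of 25 bp. Of the pairs, 14 were 6 to 15 bp apart and 19 were 16 to 25 bp apart. The median relative signal was 6.2, 4.63 and 10.1 in replicates 1, 2 and 3 for members with several sites, against 3.82, 3.33 and 5.34 for members with 1. Of the 327 members of higher IDR signal, 37 (11.3%) held several sites, against 25 of the 327 of lower signal (7.65%; log2 odds ratio 0.61, adjusted exact p = 0.142). The difference passed the threshold without replicate 1 (1.17, adjusted exact p = 0.0204), without replicate 2 (1.26, adjusted exact p = 0.00674), without replicate 3 (1.18, adjusted exact p = 0.0175) and with a 100 bp window in the rule (1.03, adjusted exact p = 0.0124). It did not pass when sites of the same members were counted within 100 bp (0.40, adjusted exact p = 0.263) or with a 25 bp window in the rule (0.86, adjusted exact p = 0.0619). In each replicate's own list it was positive, 5.96 ± 1.15 percentage points (SD, n = 3). CG2841, with 4 sites, was weak, with a relative signal of 0.404, 0.498 and 0.945.

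Members were stronger than promoter peaks of 1 gene without the site. The median relative signal in replicates 1, 2 and 3 was 3.91, 3.39 and 5.53 in members, against 0.726, 0.867 and 0.783 without the site. The difference in median log2 signal was 2.43, 1.97 and 2.82, a mean of 2.40 ± 0.43 (SD, n = 3; exact sign-flip permutation p = 0.25, two-sided, the smallest 3 replicates allow). The ranges overlapped widely, from 0.0691 to 50 in members and 0.072 to 44 without the site in replicate 3. Among the 1000 strongest IDR peaks the mean difference was 0.09. In the IDR list the median rank was 981 in members and 3163 without the site, and 355 members (54.3%) were in the strongest quintile of the list, against 113 (8.65%). G+C content also differed: the median over the window of 50 bp to either side of the summit was 46.5% in members and 40.6% without the site, and its part in these differences was tested only for the motifs and the summit position. CAGCTG itself is counted in every member's window and in none of the others, so the G+C difference is partly built in.

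**Figure D3:**
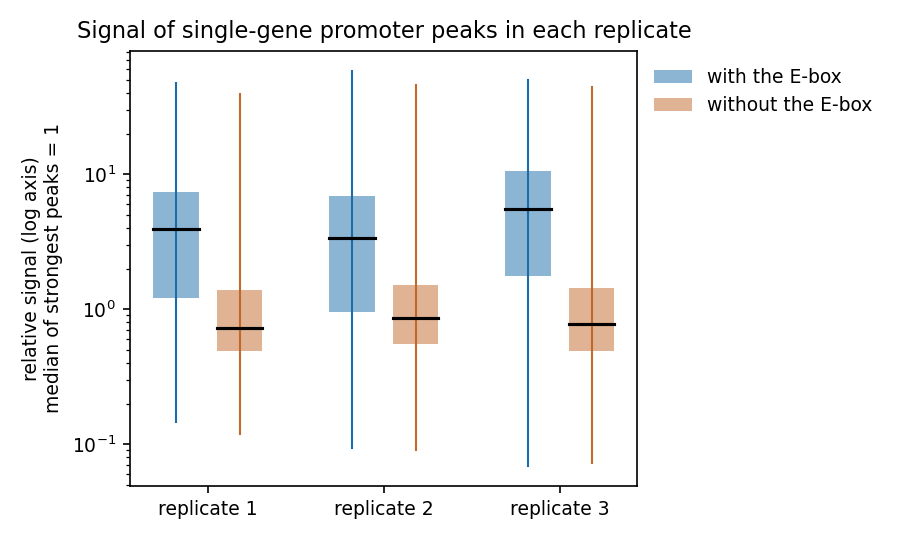
Relative signal (y axis, log scale) of promoter peaks of 1 gene with and without the E-box in each replicate (x axis). Boxes span the quartiles, black lines are medians and thin lines reach the lowest and highest peak; members' medians are 3.39 to 5.53 and those without the E-box 0.726 to 0.867.

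Over the whole list, members recurred in the replicates more often than the others, but not in every quintile of signal. Being among a replicate's strongest peaks is itself a cut on signal, so this share is not separate from the signal above. All 3 replicates had a matching summit, at most 100 bp away and among their 5460 strongest, for 522 of 654 members (79.8%, 76.6 to 82.7), against 627 of 1307 peaks without the site (48.0%, 45.3 to 50.7) and 53.2% of all IDR peaks (log2 odds ratio 2.10, adjusted exact p = 3.9e-43). Within signal quintiles the log2 odds ratio was −0.60 by the Mantel-Haenszel test (adjusted p = 0.0579), and in quintiles 3 to 5 the shares were 23.5% in members and 30.3% without the site (adjusted exact p = 0.142). From quintile 1 to 5 the shares were 99.7%, 90.4%, 50.8%, 7.69% and 2.5% in members. Without the site they were 99.1%, 88.9%, 65.6%, 20.8% and 3.02%. Members were thus lower in quintiles 3, 4 and 5, while quintiles 1 and 5 lie near the limits of the share. These strata hold signal, which the share depends on, so quintiles of signal cannot fully separate recurrence from signal. The same rule applied to each replicate's own strongest peaks gave 599, 527 and 776 peaks, and 80.6%, 76.1% and 94.2% of the 654 members were among them (83.6% ± 9.40, SD, n = 3). The IDR list came from the same replicates, so these shares are partly built in.

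The strongest member lay at CG9175, 57 bp upstream of the start (summit 2L 6099023), with a relative signal of 47.2, 58.7 and 50 in replicates 1, 2 and 3. Its lowest replicate was above 39.1, the highest value of any other member in any replicate. mTTF, which encodes a mitochondrial transcription termination factor, had 26.5, 32.5 and 35.6 at a summit 24 bp upstream (2L 14348814). RabGGTb, a subunit of the enzyme that attaches prenyl groups to Rab proteins, had 25.1, 26.3 and 39.1 (17 bp upstream, 2L 2879095). CG11050 had 26.5, 28.4 and 30.9 (33 bp upstream, 2L 6610978). jar, which encodes myosin VI, had 25.8, 26.6 and 32.7 (126 bp upstream, 3R 24271359). Rfx, a transcription factor of the RFX family known for cilia of sensory neurons, had 26.4, 25.3 and 31.4 (73 bp upstream, 3R 10378141). The replicates of these members below CG9175 overlapped each other, so their order is not firm.

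Sap47, a synapse-associated protein, had 24.5, 22 and 31.1 (6 bp downstream, 3R 15935106), and apt, a transcription factor needed in tracheal and head development, had 21.1, 26.3 and 26.9 (42 bp upstream, 2R 23564849). CG1354 had 18.8, 29.9 and 24.7, and U3-55K, a protein of the U3 particle that processes ribosomal RNA, had 18.8, 29.3 and 24.0. Aprt, the enzyme of adenine salvage, had an SD of 8.89, with 22.4, 15.2 and 32.9. Genes of mitochondrial translation initiation were both present, mIF2 with 18.3, 22 and 26.2 and mIF3 with 19.3, 14.2 and 26.6. Genes of DNA replication and its checkpoints included timeout, a relative of timeless, with 14.9, 26.4 and 24.7, and Claspin with 16.7, 22.4 and 21.5.

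Others of the 25 strongest had means from 18.7 to 21.5. Among them were CG3358 (21.5 ± 3.97), CG4238 (21.3 ± 3.61), Tsen15, a subunit of the tRNA splicing endonuclease (21.0 ± 1.60), CG5721 (20.7 ± 1.92) and Nsf2, an ATPase of vesicle fusion (20.1 ± 3.47). CG15536 had 19.8 ± 4.29, Mtp, a protein that loads lipid onto lipoproteins, 19.4 ± 4.27, Adk3 19.1 ± 7.14 and AdipoR, a receptor of the adiponectin receptor family, 18.7 ± 2.25 (SD, n = 3). Each of these members was among the strongest peaks of all 3 replicates.

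**Figure D4:**
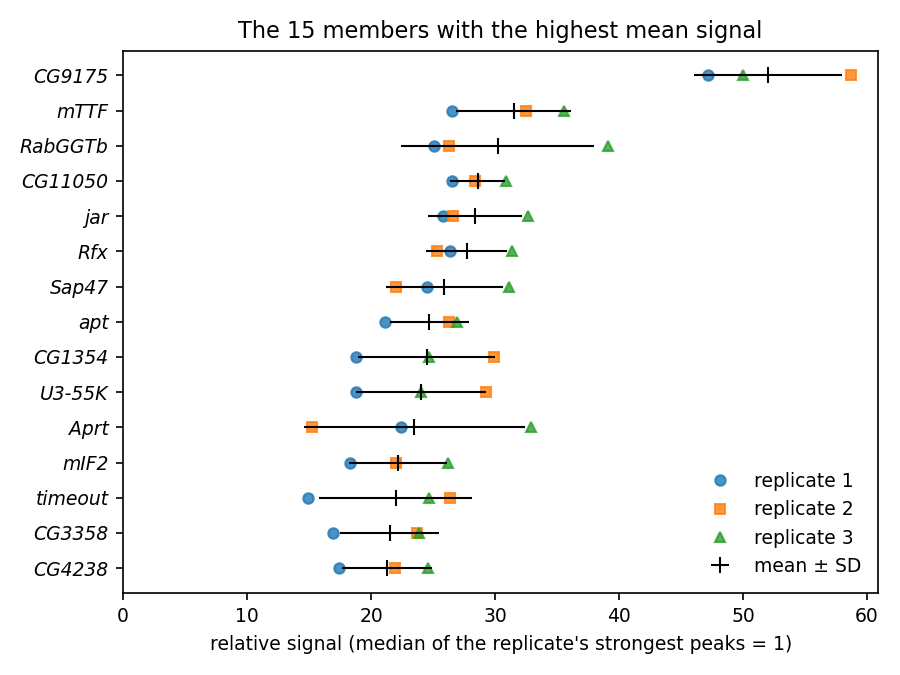
Relative signal (x axis; median of the replicate's strongest peaks = 1) of the 15 members with the highest mean (y axis, by gene). Coloured points are replicates 1 to 3 and black bars the mean ± SD; CG9175 stands apart at 47.2 to 58.7, and the others overlap their neighbours.

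The members of lowest IDR signal had ranks near the end of the IDR list. Lim1, a homeobox transcription factor, had 0.157, 0.251 and 0.552 (rank 5455), and CG10184 had 0.483, 0.196 and 0.522. CG7720 was matched in replicate 2 only, at 0.582. Pdhb, a subunit of pyruvate dehydrogenase, had 0.876 and 0.849 in replicates 1 and 3 and no match in replicate 2. The weaker of 2 members at Btk, a tyrosine kinase, had 0.321, 0.140 and 0.585. In all, 6 genes (Btk, CG10337, Pdk, Rm62, TrpRS-m and pn, named because of this count) held 2 members each, with summits 200 to 220 bp apart. A further limit on naming genes is that 23 members (3.52%) had starts of 2 genes of the same strand within 500 bp, and the nearest was taken.

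Most other promoter motifs were little different at members. Of 23 motifs searched on both strands within 50 bp of the summit, 0 (0%) were more frequent in members than in peaks without the site and 2 (8.7%) were less frequent, by Fisher's exact test with Benjamini-Hochberg adjustment over the 23. At an unadjusted p under 0.05 the counts were 0 and 3, and without replicate 2 the adjusted counts were 2 and 2. The adjusted counts were 1 and 2 without replicate 1, with a 100 bp window for motifs and with a 100 bp window in the rule. TATAAA, the letters of the TATA box that positions the start in focused promoters, was at 43 of 654 members (6.57%), against 172 of 1307 (13.2%; log2 odds ratio −1.09, adjusted exact p = 1.7e-04). It was lower in all 3 replicates, with 6.01%, 6.64% and 5.80% in members, against 14.1%, 15.0% and 12.7%. The call ended within strata of G+C content (log2 odds ratio −0.04, Mantel-Haenszel adjusted p = 0.993), among summits within 100 bp of the start (−0.22, adjusted exact p = 0.837) and in the 1000 strongest peaks (−0.94, adjusted exact p = 0.449). The E-box CATATG was at 15 members (2.29%), against 81 peaks without CAGCTG (6.2%; log2 odds ratio −1.46, adjusted exact p = 1.0e-03), and was lower in all 3 replicates. That call ended with a 25 bp window in the rule (−1.17, adjusted exact p = 0.108).

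Motifs of housekeeping promoters, the initiator and the GAGA factor site did not pass the adjusted threshold in the IDR list. TATCGATA, the DNA replication-related element (DRE), was at 9.33% of members and 8.49% of peaks without the site (adjusted exact p = 0.708). CGATA was at 33.8% and 31.8%, and the M1BP site GGTCACACT at 3.52% and 4.51%. The initiator, TCAGT followed by C or T, was at 11.2% and 8.42% (adjusted exact p = 0.267), and GAGAGAG, the site of GAGA factor, at 3.67% and 2.14% (adjusted exact p = 0.267). Of these motifs, the M1BP site was lower in members in all 3 replicates, and the others were higher in all 3. For scale, in windows of the same length centred 50 bp upstream of the first start of all 13968 protein-coding genes, CAGCTG was at 7.67%, TATCGATA at 6.29%, CGATA at 28.4%, TATAAA at 20.2% and CATATG at 2.41%. CGATA is contained in TATCGATA, so those counts overlap.

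**Figure D5:**
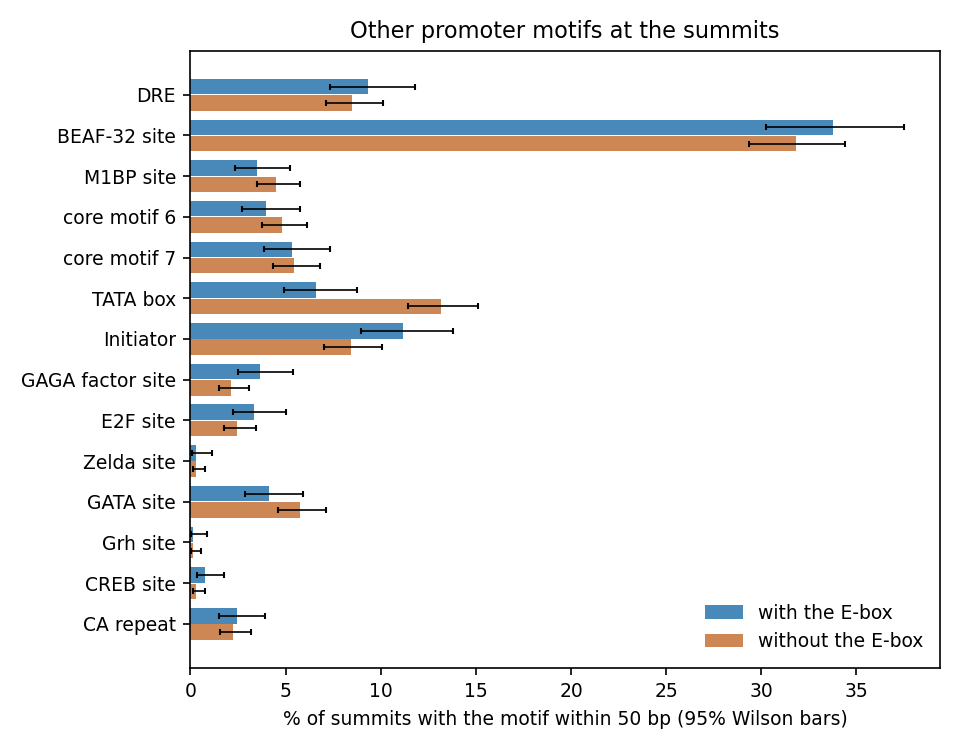
Share of summits with each motif within 50 bp (x axis, %, 95% Wilson bars) for motifs other than E-boxes (y axis), in members and in peaks without the E-box. The TATA box is at 6.57% and 13.2%; the DRE at 9.33% and 8.49%.

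Members were spread over the large arms. There were 124 on 2L, 128 on 2R, 136 on 3L, 166 on 3R, 99 on X, 1 on 4 and 0 of 654 on Y. As shares, 19%, 19.6%, 20.8%, 25.4%, 15.1% and 0.153% lay on 2L, 2R, 3L, 3R, X and 4. For peaks without the site these shares were close, at 18.7%, 21.1%, 20.6%, 22.6%, 16.8% and 0.306%, with 0 on Y. Over all protein-coding genes, 648 of 13968 (4.64%) had a member, and this share is 1 scale for the gene groups below. Of the 4657 genes with any promoter peak, 13.9% had one, which is the scale for groups whose genes mostly had such a peak. Group percentages below are over all genes of a group, so they are not on this second scale. On it, mitochondrial ribosomal proteins had 8 of 61, aminoacyl-tRNA synthetases 5 of 30, complex I 7 of 24 and cytosolic ribosomal proteins 2 of 72. The groups were taken from symbol patterns or short lists and are described by counts with no test, and several are small.

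Genes of mitochondria were represented in most of their groups. Of 40 complex I genes, 7 (17.5%) had a member, among them ND-B17 with a relative signal of 12.2, 11.4 and 15.6, ND-B14.7 with 8.75, 7.24 and 12.1 and ND-75, an iron-sulphur subunit, with 7.93, 9.25 and 10.3. Complexes II to V had 4 of 47 (8.51%), including SdhA of succinate dehydrogenase (6.54, 6.31 and 9.55) and ATPsynO of the ATP synthase (4.26, 6.06 and 5.75). Mitochondrial ribosomal proteins had 8 of 73 (11%), with mRpS9 highest (13.3, 11.3 and 21.2). Genes of mitochondrial DNA expression and replication had 2 of 13, mTTF and mtSSB, the single-strand binding protein (3.74, 3.31 and 4.01). Import had 2 of 18, Tom7 (5.40, 6.28 and 6.39) and Tim9b (4.32, 3.53 and 6.90). Quality control and dynamics had 2 of 21, ClpX, the unfoldase of a matrix protease (14.2, 10.9 and 19.0), and Miro, a GTPase for mitochondrial transport, which was weak in replicate 2 (2.31, 0.328 and 2.90). Many genes of these groups had a promoter peak of some class, against 33.3% of all genes. The counts were 24 of 40 for complex I, 20 of 47 for complexes II to V and 61 of 73 (83.6%) for the ribosomal proteins. They were 8 of 13 for mitochondrial DNA, 7 of 18 for import and 15 of 21 for quality control and dynamics.

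Transport and translation groups were uneven. Aminoacyl-tRNA synthetases had 5 of 33 (15.2%), and 4 of these, MetRS-m, PheRS-m, TrpRS-m and ValRS-m, carry the suffix of mitochondrial forms; the other was CysRS (11.7, 11.3 and 14.3). Motor proteins had 5 of 37 (13.5%), jar, Myo61F (7.30, 5.90 and 8.66), Klp10A (2.08, 1.46 and 1.92), Klp64D and Klp68D. The Rab symbols had 4 of 36 (11.1%), including Rab19 (6.65, 5.63 and 8.81) and Rab3-GAP, which the pattern takes although it encodes a regulator and not a Rab. Translation factors had 1 of 52, eIF2Bgamma (11.5, 9.14 and 16.5). A promoter peak of some class was at 30 of the 33 synthetase genes (90.9%) and 13 of the 37 motor genes. It was at 18 of the 36 Rab symbols and 25 of the 52 translation factors. Cytosolic ribosomal proteins had 2 of 92 (2.17%), RpL37-1 (9.31, 8.54 and 13.1) and RpS14b (2.82, 3.62 and 3.17), while 72 of the 92 had a promoter peak of some class. RpS14b has a near-identical neighbour, RpS14a, and how reads that fit both were placed was not stated in the sources at hand.

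Genes of growth and the cell cycle gave a few strong members. Replication and mitosis had 4 of 48 (8.33%), E2f1, the S-phase transcription factor (17.2, 15.2 and 22.4), Cdc6 (11, 14.9 and 12) and Orc6 (6.07, 4.40 and 8.88), which load the replicative helicase, and stg, the mitotic phosphatase. Ribosome biogenesis had 2 of 28, Polr1B, a subunit of RNA polymerase I (16.3, 15.9 and 19.4), and l(2)k09022 (10.7, 15.6 and 14.0). Insulin and TOR signalling had 2 of 24, gig, the TSC2 homologue (6.28, 5.67 and 9.44), and foxo, which was matched in replicate 2 only (0.658). Nucleoporins had 2 of 24, Nup44A (1.13, 1.11 and 2.35) and Nup35 (1.05, 1.71 and 1.41), and the V-ATPase 1 of 33, VhaSFD (2.69, 2.38 and 3.09). Promoter peaks of some class were at 31 of the 48 replication and mitosis genes and 23 of the 28 of ribosome biogenesis. For insulin and TOR the count was 15 of 24, for nucleoporins 15 of 24 and for the V-ATPase 19 of 33.

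Several groups held 0 members, which in groups this small is not read as a contrast with the 4.64% of all genes. Beside it stands the number of their genes with a promoter peak of some class, which over all genes was 33.3%. The proteasome had 0 of 48 with 23 genes bound at some promoter, the autophagy and Vps group 0 of 47 with 32, chaperones 0 of 38 with 17, glycolysis 0 of 14 with 10 and tetraspanins 0 of 34 with 9 (26.5%). Hox and segmentation genes had 0 of 29 with 1, Cpr cuticle genes 0 of 70 with 0, and odorant and gustatory receptor genes 0 of 179 with 3. Of 29 tracheal genes 1 had a member, mmy, which makes the sugar nucleotide for chitin (3.91, 5 and 5.33). Of 39 basic helix-loop-helix genes 1 had a member, tx (0.397, 0.474 and 0.868). crp itself had 2 IDR peaks in the promoter of 1 gene class, 306 and 105 bp downstream of the start (2L 16287424 and 16287625), neither with CAGCTG within 50 bp, so it was not among the members.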

How the data were processed

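Peaks of crp-GFP chromatin were analysed in 3 biological replicates of 1 group. The deposited peak lists give a signal value and a summit for each peak; per the deposited notes they are on dm6, with relaxed lists per replicate and pooled, and 1 IDR list. Aligner, peak caller, settings and the cut-off on IDR were not stated in the sources at hand. The notes name files behind the IDR list that were not used here. The dm3 lists were not used.

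Gene starts came from Ensembl release 115 (13968 protein-coding genes, 19275 starts) and sequence from RefSeq. Summits were called shared within 100 bp. Fisher's exact test, two-sided, was used on shares, with Benjamini-Hochberg adjustment at 0.05; log2 odds ratios carry 0.5 added per count. Such p-values take peaks or sites as units, and 95% Wilson intervals cover counting error only. Python 3.11.15, scipy 1.17.1 and statsmodels 0.14.6 were used, and the tests were tested on simulated data. Members, 23 motifs and 26 gene lists were chosen with earlier results of these data known. Named genes were crp, the 25 members of highest mean signal, the 5 of lowest IDR signal, members with 4 or more sites and up to 3 per gene list; 1 of them is not reported here. A few names in the text come from counts of 8 or fewer and were chosen after their values were seen. Alternatives varied windows, matching distance, strata, list length and replicates.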

Additional observations from a re-analysis of the deposited data

How the results depend on the processing

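The results were recomputed under the alternatives, which gave 175 values in all, and the results on the place of the E-box kept their direction and call in all that concern them. Of 10 flank classes 8 or 9 were called throughout, the ninth being cytosine and thymine, lower with bound sites taken within 100 bp or with 1 site per gene. The signal difference of 2.40 was 0.09 in the 1000 strongest peaks and 1.80 to 2.40 with the other settings on the full list. For leaving out a replicate, summits shared by the strongest peaks of the remaining pair (3377, 3938 and 3428 without replicates 1, 2 and 3) replaced the IDR list. Where values changed, the cause was not tested.

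Replicate support, a log2 odds ratio of 2.10, was −0.60 over signal quintiles, −0.49 in signal quintiles 3 to 5 and 0.17 in the 1000 strongest peaks. In those strongest peaks the shares were 99.7% in members and 100% without the site. The positive sign of 0.17 thus comes from the 0.5 added per count. The upstream share of summits, −0.28, was −0.81 over signal quintiles, −0.42 with a 25 bp site window, −1.20 in the 1000 strongest peaks, 0.11 over G+C quintiles and from −0.32 to 0.32 without a replicate, the positive value being without replicate 2. The difference in members with several E-boxes, 0.61, was 1.03 with a 100 bp window in the rule, 0.40 with sites of the same members counted within 100 bp, 0.86 with a 25 bp window in the rule, 1.23 in the 1000 strongest peaks and 1.17 to 1.26 without a replicate. The number of motifs called, 2, was 1 among summits within 100 bp of a start, 1 with a 25 bp window, 1 over G+C quintiles and 4 without replicate 2, of which 2 were higher and 2 lower; it was 3, of which 1 was higher, without replicate 1 and with a 100 bp window for motifs or in the rule. Genes with a member numbered 648, against 406 with a 25 bp window and 333 in the 1000 strongest peaks. Strata of G+C, quintiles 3 to 5, sites within 100 bp of a start and sites with adenine or thymine on both strands were added after seeing the data.

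No paired analysis was possible because there is 1 group. The lists hold no read counts, so the depth behind a peak and the share of weak sites missed for lack of depth are unknown.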
